A study of Antheraea pernyi with 6 samples.

Results

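The genes described here encode the mitochondrial respiratory chain and ATP synthase, with factors that assemble them, in the antenna of the adult Chinese oak silkmoth, Antheraea pernyi. The rule that takes them reads only names. A gene was taken where the best protein hit in the authors' table named NADH dehydrogenase, NADH-ubiquinone, succinate dehydrogenase, cytochrome b-c1, ubiquinol-cytochrome, cytochrome c oxidase or ATP synthase, which gave 65 of 16458 genes. Messenger RNA was sequenced from 3 antennal libraries labelled female and 3 labelled male. The labels give no age, strain or treatment for either group, and do not say whether the 3 libraries came from separate or pooled animals, so the spread between them may be technical in part. Library totals, read from the steps of the deposited values, lay between 9392242 and 11180175 reads.

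Complexes I and II pass electrons from NADH and from succinate to ubiquinone, complex III passes them on to cytochrome c, and complex IV passes them to oxygen. Complexes I, III and IV pump protons across the inner mitochondrial membrane, and ATP synthase, or complex V, uses the return flow to make ATP. Most subunits of these complexes are nuclear genes whose products are imported into mitochondria. Olfactory neurons and the support cells around them spend ATP on ion transport, so an antenna uses these genes throughout.

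The 65 genes comprised 54 subunit genes, 10 assembly factor genes and 1 gene named ATP synthase subunit s. By complex they numbered 11 for complex I, 4 for complex II, 11 for complex III, 15 for complex IV and 24 for complex V. Best hits come from other species, so several gene models carry the same subunit name. Other subunits lack these names, so counts and sums by complex cover only the genes taken by name. None of the 65 carries the name of a mitochondrially encoded subunit.

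The library labels could not be taken as proof of sex. Pheromone-binding protein 1, a carrier often male-biased in moths, stood at 92516 ± 2089 FPKM (SD, n = 3) in the libraries labelled female and 1273 ± 90.6 in those labelled male. FPKM are reads scaled to gene length and library size, as the authors deposited them. Exchanged labels and a true sex difference cannot be told apart, so every direction below is one between labels. The odorant receptor coreceptor, listed as putative chemosensory receptor 2, is a marker of olfactory neurons. It also split by label, at 465 ± 5.90 FPKM in the libraries labelled female and 176 ± 1.58 in those labelled male, without overlap. Its lowest value over the 6 libraries was 174.1 FPKM, so the antennal label has its defining marker. In bulk tissue, fewer cells of a type and less RNA per cell cannot be told apart.

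Respiratory chain and ATP synthase genes were abundant and on the deposited scale mostly differed little between labels. Together they held 2.28% ± 0.0199 of all FPKM in the libraries labelled female and 2.21% ± 0.0523 in those labelled male (SD, n = 3). Of the 65 genes, 40 had a mean of at least 100 FPKM, and 38 were among the 1000 most abundant genes. Within a label the coefficient of variation of the 40 abundant genes had a median of 3.8%.

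Genes with a mean of at least 0.5 FPKM were tested by limma on log2(FPKM + 1), with p-values adjusted over 11590 genes by Benjamini-Hochberg and a threshold of 0.05. A log2 fold change is the male label minus the female label. Of the 65 genes, 55 were tested and 20 passed, 9 higher in the male-labelled libraries and 11 higher in the female-labelled ones. Among all tested genes 36.9% passed, 27.8% toward the male label and 9.03% toward the female label. The overall share among the 55 genes, 36.4%, is thus near the background. On the deposited scale 45 of the 55 genes had a log2 fold change within 0.3 of zero, beside 5144 of all 11590 tested genes. Among the 40 abundant genes 4 were called toward the male label and 11 toward the female label, 37.5% in all, beside 67.2% of the 1212 tested genes with a mean of at least 100 FPKM (35.1% toward the male label and 32.2% toward the female label). The libraries of 28 of the 55 genes overlapped between labels, 12 had each male-labelled library higher and 15 each female-labelled one, beside 50.1% of all tested genes without overlap (37.9% and 12.1%). The median log2 fold change of the 55 genes was 0.03 with an interquartile range of 0.24, beside a median of 0.23 and a range of 0.60 over all tested genes.

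The direction and size of these changes depended on how libraries were scaled. Median-of-ratios rescaling, which sets the typical gene level between libraries, moved the median of all tested genes from 0.23 to 0.02. It moved the median of the 55 genes to -0.23 and left 25 of them within 0.3 of zero, beside 5711 of all 11590 tested genes. Calls among the 55 became 3 toward the male label and 32 toward the female label. Quantile normalization gave 7 and 13, counts near the 9 and 11 of the deposited scale. The genes called were in part others, and ATP synthase subunit c turned from the female to the male label. After rescaling, all tested genes gave 14.4% toward the male label and 17.5% toward the female label. Abundant genes as a class moved the same way, since 58.7% of the 1212 genes with a mean of at least 100 FPKM were then called toward the female label. Toward the male label it was 18.6% of those 1212 genes, and 77.2% were called in all. Of the 40 abundant respiratory genes, 32 were called toward the female label and 1 toward the male label, 82.5% in all. Pheromone-binding protein 1 alone held 6.73% to 6.97% of FPKM in the libraries labelled female and 0.0889% to 0.101% in those labelled male, and its part in the offset was not tested.

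Of the 20 genes called on the deposited scale, 14 were called the same way after rescaling, 3 toward the male label and 11 toward the female label. With quantile normalization added, 11 kept their call on all 3 scales. Calls below are on the deposited scale unless another scale is named.

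**Figure D1:**
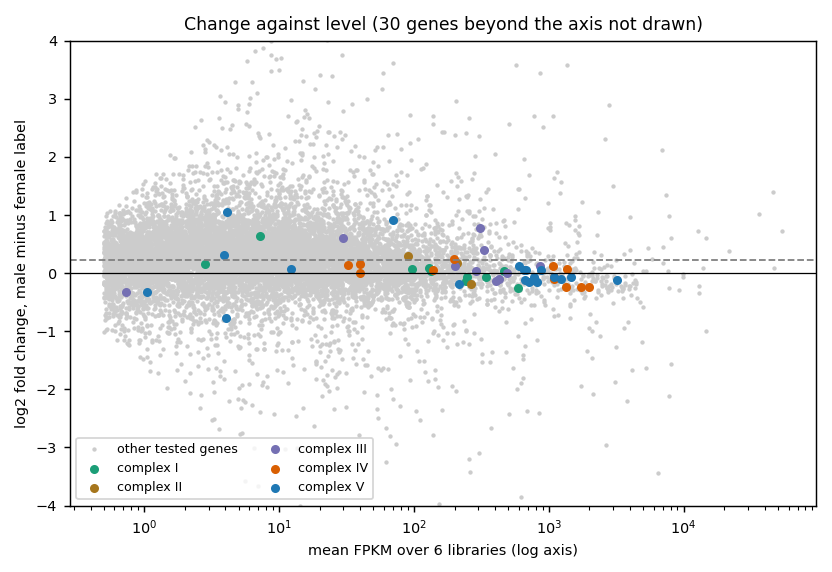
Each point is a tested gene, with its mean FPKM over the 6 libraries on a log axis and its log2 fold change (male label minus female label) on the vertical axis. Coloured points are the respiratory chain and ATP synthase genes, the solid line is zero and the dashed line is the median of all tested genes, 0.23. Most coloured points lie to the right and close to zero. 30 genes beyond the axis limit of 4 are not drawn.

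Of 10 tested genes taken by name for complex I, the NADH dehydrogenase, 1 was called toward the male label and 1 toward the female label. After rescaling 6 were called toward the female label. Further genes with complex I symbols were found only through the authors' pathway and are treated below. The 75 kDa subunit (GWHGABGR016566), an iron-sulfur protein of the electron path, stood at 91.2, 100.2 and 91.9 FPKM in the libraries labelled female and at 99.97, 105.5 and 92.8 in those labelled male. Its libraries overlapped, and its log2 fold change of 0.07 had a 95% interval from -0.08 to 0.23. The 49 kDa subunit (GWHGABGR011294), which lies near the ubiquinone site, stood at 136, 119 and 124 against 132, 139 and 131 FPKM. These libraries overlapped too, with a log2 fold change of 0.09 and an interval from -0.05 to 0.23. After rescaling the values of the 75 kDa and 49 kDa subunits were -0.18 and -0.16, neither past the test.

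The NADH-ubiquinone reductase gene with the symbol NDUFV2 (GWHGABGR018046), the 24 kDa iron-sulfur flavoprotein subunit, stood at 257, 251 and 257 against 243, 216 and 236 FPKM. Its groups did not overlap, yet it missed the threshold (log2 fold change -0.14, limma adjusted p = 0.0596) and passed after rescaling (-0.40). The subunit 8-like gene (GWHGABGR003223), with a symbol of the 23 kDa iron-sulfur subunit, stood at 140.1, 137 and 117 against 133, 131 and 140.5 FPKM. Its libraries overlapped, and its log2 fold change was 0.04 on the deposited scale and -0.22, past the test, after rescaling.

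NDUFB3 (GWHGABGR018224), an accessory subunit of the membrane arm, stood at 674.5, 643 and 625 FPKM in the libraries labelled female and at 528, 501 and 597 in those labelled male. It was the complex I gene called toward the female label, with no overlap between groups (log2 fold change -0.26, SE 0.06, limma adjusted p = 0.013), and kept that call under every alternative tried. The acyl carrier subunit (GWHGABGR011043, symbol CG9160), which also serves mitochondrial fatty acid synthesis, stood at 457 ± 20.8 against 469.7 ± 26.1 FPKM (SD, n = 3), with overlapping libraries and a log2 fold change of 0.04. The alpha subcomplex subunit 5 (GWHGABGR007164) and NDUFB9 (GWHGABGR017049) had log2 fold changes of -0.07 and -0.06. These 3 genes were called toward the female label after rescaling, at -0.22, -0.32 and -0.31.

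Assembly factor 6 of complex I (GWHGABGR004105) was low, at 5.72, 5.93 and 4.65 FPKM in the libraries labelled female and 8.397, 9.03 and 9.51 in those labelled male. The groups did not overlap and it passed toward the male label (log2 fold change 0.64, SE 0.15, limma adjusted p = 0.00964). It missed the threshold after rescaling (0.41, adjusted p = 0.0612) and under quantile normalization (0.31, adjusted p = 0.148).

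Complex II, the succinate dehydrogenase, is also an enzyme of the citric acid cycle. Its iron-sulfur subunit gene (GWHGABGR018494, symbol CG3283) stood at 83.5, 85.4 and 75.005 FPKM in the libraries labelled female and at 109, 92.8 and 99.2 in those labelled male. The groups did not overlap, and it passed toward the male label (log2 fold change 0.30, SE 0.08, limma adjusted p = 0.0171). After rescaling its value was 0.04 (adjusted p = 0.692), and the call was also lost under quantile normalization (0.21, adjusted p = 0.0656), without female replicate 3 or without male replicate 1. Assembly factor 4 (GWHGABGR003889) was higher in each male-labelled library than in any female-labelled one, at 198 ± 19.4 against 223 ± 7.61 FPKM, but missed the threshold (log2 fold change 0.17, limma adjusted p = 0.0976) and stood at -0.09 after rescaling. Assembly factor 2 (GWHGABGR005476), which helps to place the flavin of the enzyme, stood at 282 ± 25.5 against 249 ± 37.1 FPKM, overlapped and did not pass (-0.19), though it did after rescaling (-0.44). The model named for the cytochrome b560 subunit (GWHGABGR000616), a membrane anchor, had 1 read in all and was not tested. No flavoprotein subunit was taken by name. The authors' pathway also lists genes with the symbols CG17246 (GWHGABGR016493) and CG10219 (GWHGABGR015525). These stood at 191 ± 9.50 against 172 ± 10.6 FPKM and 156 ± 6.48 against 157 ± 12.9 FPKM. Neither passed, and after rescaling both were called toward the female label, at -0.40 and -0.25.

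Complex III, the cytochrome b-c1 complex, held the largest log2 fold change among the 40 abundant genes. Subunit 8 (GWHGABGR005274, symbol Uqcrq), a small accessory subunit near cytochrome b, stood at 244, 225 and 222 FPKM in the libraries labelled female and at 410.1, 371 and 398 in those labelled male. The lowest male-labelled value was far above the highest female-labelled one, and the gene passed under every alternative tried (log2 fold change 0.77, SE 0.05, limma adjusted p = 1.06e-05). Its value was 0.51 after rescaling and 0.68 under quantile normalization. Subunit 10 (GWHGABGR006141), another small subunit, stood at 314, 272 and 263 against 348, 329 and 453 FPKM. Its groups did not overlap on the deposited scale (log2 fold change 0.40, limma adjusted p = 0.0271). It did not pass after rescaling (0.15, limma adjusted p = 0.372), under quantile normalization (0.31), without a filter on low values, without female replicate 2 or without female replicate 3.

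The Rieske subunit (GWHGABGR004264), the iron-sulfur protein that carries electrons to cytochrome c1, stood at 443, 415 and 424 FPKM in the libraries labelled female and at 372, 402 and 391 in those labelled male. The groups did not overlap and the gene passed toward the female label (log2 fold change -0.14, SE 0.04, limma adjusted p = 0.0368; -0.39 after rescaling). That small change lost its call with no filter on low values and with the replicate number as a block. It also lost it without female replicate 1, female replicate 3, male replicate 1 or male replicate 3. Core subunit 2, a scaffold protein related to processing peptidases, had a pair of abundant models. GWHGABGR017962 stood at 442 ± 1.22 against 411 ± 13.7 FPKM without overlap and just missed the threshold (limma adjusted p = 0.0537), while GWHGABGR017960 stood at 285 ± 13.0 against 290.5 ± 10.1 FPKM with overlap. After rescaling both were called toward the female label, at -0.36 and -0.23.

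The other complex III subunits taken by name did not pass on the deposited scale. The 14 kDa subunit (GWHGABGR007130) stood at 486 ± 22.5 against 489 ± 6.86 FPKM, with a log2 fold change of 0.01 and an interval from -0.09 to 0.10. Subunit 6, an acidic hinge protein that helps cytochrome c1 meet cytochrome c, had models at 818 ± 26.6 against 895 ± 65.2 FPKM (GWHGABGR015923) and 193 ± 1.06 against 213 ± 31.9 FPKM (GWHGABGR015911), both overlapping and both at 0.13. Their intervals were 0.01 to 0.25 and -0.08 to 0.34, and GWHGABGR015923 passed toward the male label under quantile normalization (0.14, limma adjusted p = 0.0301). After rescaling the 14 kDa subunit passed at -0.25, and the subunit 6 models stood at -0.13 and -0.12 without passing. Assembly factor 1 of complex III (GWHGABGR005894) stood at 25.3, 20.03 and 24.9 against 34.4, 31.1 and 42.9 FPKM. It passed without overlap (log2 fold change 0.60, limma adjusted p = 0.00961) and missed the threshold after rescaling (0.35, adjusted p = 0.0816) and under quantile normalization (0.39, adjusted p = 0.0663).

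Complex IV, the cytochrome c oxidase, had 12 tested genes, of which 3 were called toward the female label and 1 toward the male label. That is 33.3% in all, beside 36.9% of all tested genes. By direction it is 25% and 8.33%, beside 9.03% and 27.8%. After rescaling 7 and 0 were called, 58.3% beside 31.8% of all tested genes. NDUFA4 (GWHGABGR001859), first described in complex I and now placed in complex IV, stood at 2202, 2094 and 2123 FPKM in the libraries labelled female and at 1949, 1629.5 and 1897 in those labelled male. The groups did not overlap (log2 fold change -0.23, limma adjusted p = 0.0186). The call was lost under quantile normalization (-0.14, adjusted p = 0.149) and without female replicate 1.

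Subunits 6A and 6B1 kept the call toward the female label under every alternative tried. Subunit 6A (GWHGABGR011181), a small regulatory subunit, stood at 1896, 1741 and 1961 against 1636, 1546 and 1553 FPKM without overlap (log2 fold change -0.24, SE 0.05, limma adjusted p = 0.00392). Subunit 6B1 (GWHGABGR013671), which faces the cytochrome c side, stood at 1491, 1463 and 1373 against 1201, 1199.8 and 1297 FPKM without overlap (log2 fold change -0.23, SE 0.04, limma adjusted p = 0.00389). Both fell further on the rescaled values, at -0.50 and -0.48.

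Subunit 5B (GWHGABGR018327), a zinc-binding subunit on the matrix side, stood at 181, 182 and 182 FPKM in the libraries labelled female and at 215, 218 and 214 in those labelled male. Libraries within a label lay very close together and the groups did not overlap (log2 fold change 0.25, SE 0.04, limma adjusted p = 0.00135). The gene kept its call under quantile normalization (0.17) but stood at -0.01 after median-of-ratios rescaling, level with the typical gene. Its recovered length was 1386 bases, against 237 for subunit 6C. Their reads were similar, 8312 and 8495 for 5B and 8021 and 7522 for 6C in the female and male labels. The lower FPKM of 5B thus goes with the length of its model. Subunit 4 (GWHGABGR016807), where ATP binds to slow the enzyme in mammals, stood at 1114 ± 41.9 against 1063 ± 61.0 FPKM with overlap (-0.07, interval -0.18 to 0.04). Subunit 5A (GWHGABGR007301) stood at 1133 ± 26.1 against 1056 ± 59.5 FPKM with overlap, and did not pass (-0.10). After rescaling subunits 4 and 5A were called toward the female label, at -0.33 and -0.36. Subunits 6C (GWHGABGR021344) and 7C (GWHGABGR002372) had log2 fold changes of 0.12 and 0.08 that turned to -0.14 and -0.18 after rescaling, and only 7C of this pair then passed.

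Assembly factors of complex IV did not pass on the deposited scale. COX11 (GWHGABGR013663), which delivers copper, stood at 30.7 ± 1.43 against 34.0 ± 1.97 FPKM, and COX20 (GWHGABGR006516), a chaperone of subunit 2, at 135 ± 7.33 against 140.5 ± 6.48 FPKM. Assembly factors 3 (GWHGABGR013555) and 6 (GWHGABGR014130) stood at 39.8 and 37.3 against 39.8 and 42.9 FPKM on average, and the 4 genes had overlapping libraries. Among these 4 genes, COX20 was called toward the female label after rescaling (-0.20, limma adjusted p = 0.0373).

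**Figure D2:**
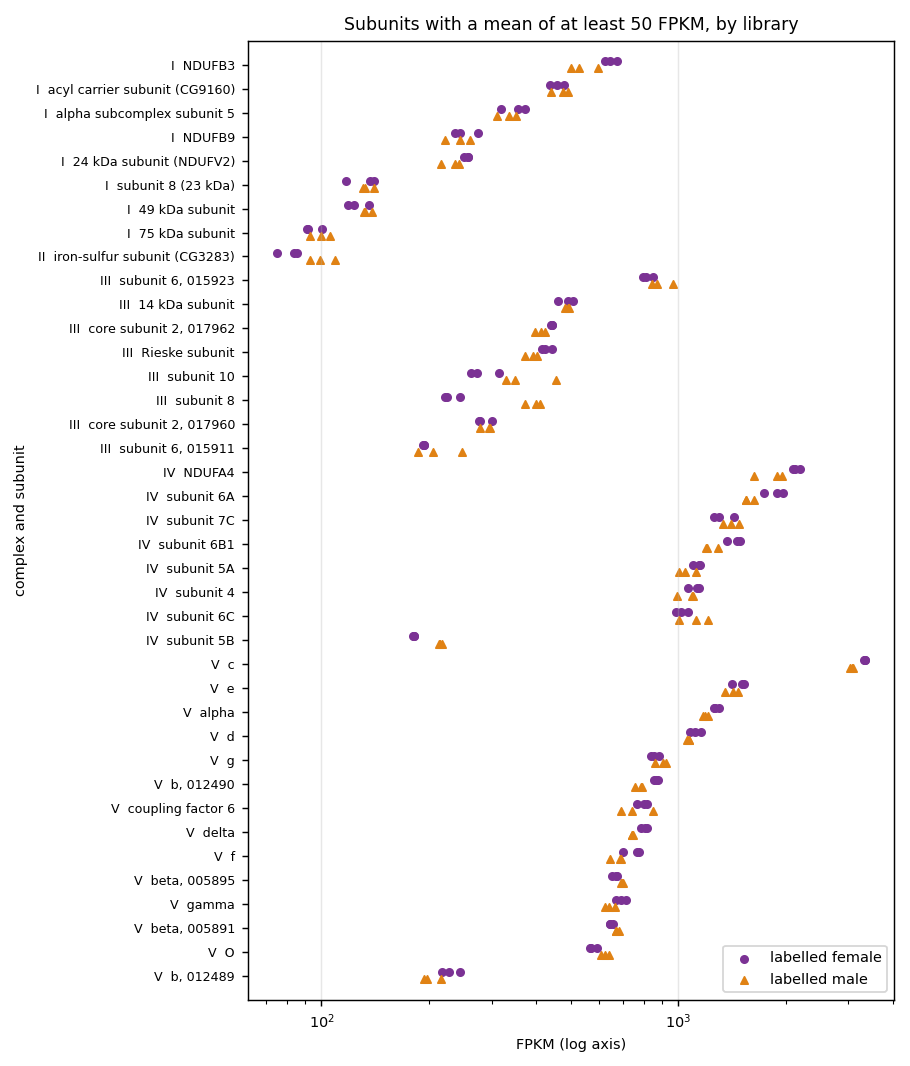
FPKM on a log axis for the 39 subunit genes with a mean of at least 50 FPKM, grouped by complex. Circles are libraries labelled female and triangles those labelled male, 3 of each per gene; numbers after a name are the last digits of the gene identifier. ATP synthase subunit c stands highest at 3023 to 3339 FPKM, and subunit 8 of complex III shows the widest gap between labels.

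ATP synthase genes had the highest summed FPKM of the 5 complexes, among the genes taken by name. The catalytic head, F1, is built of alpha and beta subunits around a gamma stalk. The alpha subunit (GWHGABGR012098) stood at 1262, 1271 and 1298 FPKM in the libraries labelled female and at 1185, 1212 and 1174 in those labelled male. Its groups did not overlap and it passed toward the female label (log2 fold change -0.10, SE 0.03, limma adjusted p = 0.0199; -0.36 after rescaling). The call was lost without female replicate 2, female replicate 3, male replicate 1 or male replicate 3, and with the replicate number as a block.

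The beta subunit, which holds the catalytic sites, had a pair of abundant models whose reads could have been split between them by the authors' counting. GWHGABGR005891 stood at 645, 657 and 644 against 668, 682 and 668 FPKM, and GWHGABGR005895 at 668, 652 and 675 against 691, 699.9 and 695 FPKM. In both models each male-labelled library lay above each female-labelled one, by too little to pass (log2 fold changes 0.05 and 0.06, limma adjusted p = 0.192 and 0.123). After rescaling both were called toward the female label, at -0.20 and -0.19.

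The gamma subunit (GWHGABGR020365), the rotating axle, stood at 692 ± 23.4 against 643 ± 19.2 FPKM without overlap and missed the threshold (-0.11, limma adjusted p = 0.0583), then passed after rescaling (-0.36). The delta subunit (GWHGABGR012879), at the foot of the axle, stood at 803 ± 17.8 against 745 ± 2.86 FPKM without overlap (-0.11, limma adjusted p = 0.0219). Delta lost its call under quantile normalization, with the replicate number as a block, and without female replicate 1, female replicate 2 or male replicate 1. Subunit O (GWHGABGR004835), which joins the head to the outer stalk, stood at 565, 593 and 571 against 625, 609 and 641 FPKM without overlap. It passed toward the male label (log2 fold change 0.12, limma adjusted p = 0.0319) and toward the female label after rescaling (-0.14, adjusted p = 0.0131). Its call was lost without female replicate 1, female replicate 3, male replicate 1 or male replicate 3, and with the replicate number as a block.

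The membrane part and outer stalk held the most abundant gene of the set, subunit c (GWHGABGR001978), whose copies form the rotating ring. It stood at 3333, 3339 and 3308 FPKM in the libraries labelled female and at 3023, 3067 and 3090.4 in those labelled male. Its groups did not overlap and it passed toward the female label (log2 fold change -0.12, SE 0.02, limma adjusted p = 0.00264; -0.38 after rescaling). Under quantile normalization it turned to 0.16 and passed toward the male label (adjusted p = 0.00199). Subunit b, the stalk that holds the head still, was called toward the female label in its abundant models on all 3 scales. GWHGABGR012490 stood at 866 ± 13.4 against 778 ± 18.5 FPKM (-0.15, limma adjusted p = 0.00536) and GWHGABGR012489 at 230.1 ± 13.5 against 203 ± 11.7 FPKM (-0.18, limma adjusted p = 0.0426).

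GWHGABGR012489 lost its call with no filter on low values and with the replicate number as a block. It also lost it without female replicate 2, female replicate 3, male replicate 2 or male replicate 3. Subunit f (GWHGABGR007735), a small membrane subunit, stood at 749 ± 42.5 against 674 ± 24.8 FPKM and passed toward the female label without overlap (-0.15, limma adjusted p = 0.0394). Of the 6 libraries, leaving out any but female replicate 3 ended that call. So did dropping the filter on low values, and the replicate number as a block. Subunits d (GWHGABGR018060), e (GWHGABGR019670) and coupling factor 6 (GWHGABGR015652) each had a log2 fold change of -0.07 that did not pass, and g (GWHGABGR008654) one of 0.06. After rescaling d, e, g and coupling factor 6 were called toward the female label, at -0.32, -0.33, -0.19 and -0.32.

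The largest changes of complex V lay outside the abundant subunits. ATP synthase subunit s (GWHGABGR002845, symbol Dmac2l), a factor also called coupling factor B in mammals, stood at 49.3, 54.98 and 41.0 FPKM in the libraries labelled female and at 90.3, 93.3 and 92.8 in those labelled male. The groups lay far apart and the call toward the male label held under every alternative tried (log2 fold change 0.92, SE 0.10, limma adjusted p = 0.000156). It stood at 0.67 after rescaling. A further model named subunit b (GWHGABGR000515), with 36 reads in the libraries labelled female and 79 in those labelled male, stood at 2.52, 2.29 and 2.17 against 5.23, 7.34 and 5.20 FPKM. It also passed toward the male label under every alternative (log2 fold change 1.05, SE 0.18, limma adjusted p = 0.00269). The F1 assembly factor 1 models (GWHGABGR001848 and GWHGABGR001852) stood at 11.9 and 3.26 against 12.8 and 4.61 FPKM on average, with overlapping libraries, and did not pass.

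**Figure D3:**
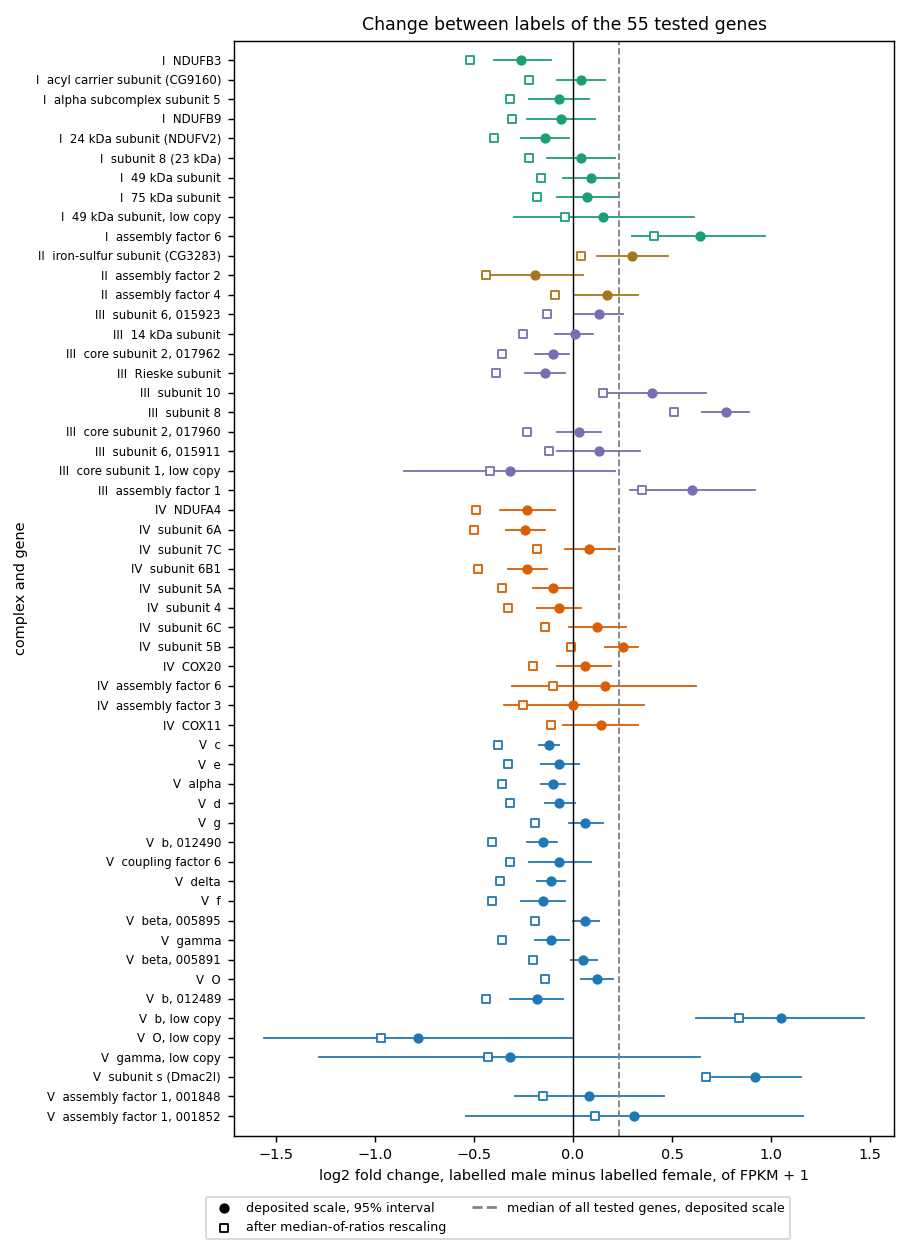
Log2 fold change (male label minus female label) of the 55 tested genes, grouped by complex. Filled circles with 95% intervals are on the deposited scale and open squares after median-of-ratios rescaling; the dashed line marks the median of all tested genes at 0.23. Rescaling moves each gene to the left, and 3 genes, complex III subunit 8, ATP synthase subunit s and a low model of subunit b, are called toward the male label on both scales.

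Models that repeat a subunit's name at very low levels made up much of the rest. Of the 65 genes, 17 had a mean under 10 FPKM, 10 of them under 0.5 FPKM and so not tested. Those 10 carry the names of the 75 kDa subunit, cytochrome b560, core subunit 2, subunits 5B, 6C and 7C, ATP synthase g and beta, with beta named in 3 models. None of the 10 had more than 8 reads in the libraries of either label. Where the same name had an abundant model, the abundant one carried nearly all of its reads. For a low O model (GWHGABGR007517) the libraries overlapped, at 6.10, 5.75 and 3.77 against 1.87, 5.17 and 1.55 FPKM, and it did not pass (-0.78, limma adjusted p = 0.107). Low models named for the 49 kDa subunit (GWHGABGR004097), core subunit 1 (GWHGABGR000693) and gamma (GWHGABGR000567) had means of 2.83, 0.735 and 1.04 FPKM, overlapped and did not pass. Core subunit 1 and cytochrome b560 appeared under these names only as low models.

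Ratios of genes within a library do not depend on a scaling by 1 factor per library. The pairs below were chosen after their values were seen and are given without a test. ATP synthase alpha over the summed beta models was 0.962, 0.971 and 0.984 in the libraries labelled female and 0.872, 0.877 and 0.861 in those labelled male. Subunit c over subunit O was 5.77 ± 0.14 against 4.9 ± 0.12 (SD, n = 3). Complex IV 5B over 6A was 0.0974 ± 0.0061 against 0.137 ± 0.0049. Complex III subunit 8 over Rieske was 0.539 ± 0.013 against 1.01 ± 0.09. None of these 4 ratios overlapped between labels, which the choice of pairs that move apart makes likely. Under quantile normalization, which is not 1 factor per library, c and O had nearly equal log2 fold changes, 0.16 and 0.15. NDUFB3 over the 75 kDa subunit, in complex I, did overlap.

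**Figure D4:**
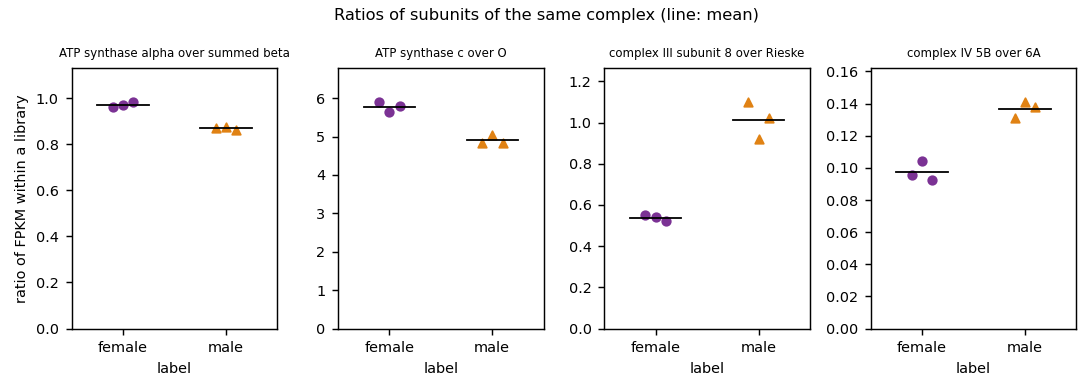
Ratio of the FPKM of genes of the same complex within each library, for 4 pairs, with 3 libraries labelled female (circles) and 3 labelled male (triangles) and a line at the mean. In each panel the groups are apart: alpha over beta and c over O are lower, and subunit 8 over Rieske and 5B over 6A higher, in the libraries labelled male.

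Summed over the genes taken by name, the complexes kept the same order in the 6 libraries, with complex V highest and complex II lowest. Genes of the same complexes found only through the authors' pathway are not in these sums. Complex V summed to 14162 ± 23.4 FPKM in the libraries labelled female and 13548.5 ± 137 in those labelled male. Complex IV summed to 10474 ± 273 against 9751 ± 507.5 FPKM, and male replicate 2 was the lowest library in both. Neither sum overlapped between labels. Complex III was the one of these 3 with a higher sum in the male-labelled libraries, at 3190.0 ± 79.3 against 3494 ± 135 FPKM without overlap. These sums are on the deposited scale. Free of scale, the complex III sum over that of complex IV was 0.305 ± 0.0024 against 0.359 ± 0.011, without overlap. The complex V sum over that of complex IV was 1.35 ± 0.033 against 1.39 ± 0.061, with overlap. Complexes I and II overlapped, at 2321 ± 55.7 against 2199 ± 118 FPKM and 562 ± 48.7 against 571.5 ± 47.3 FPKM.

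**Figure D5:**
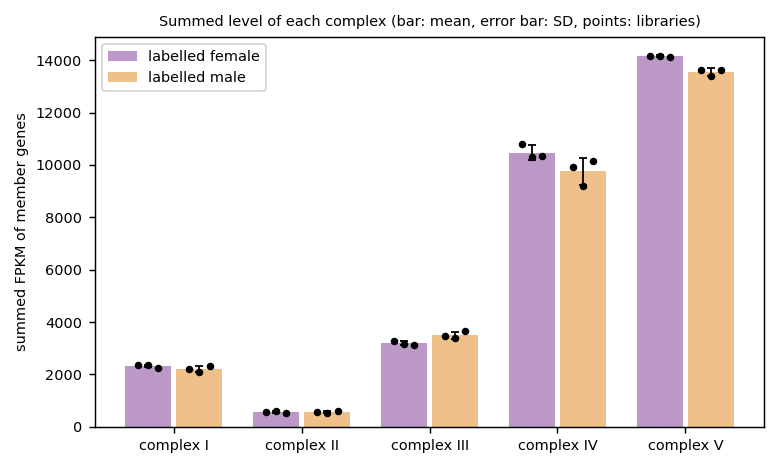
Summed FPKM of the genes taken by name for each complex. Bars are at the mean, error bars are 1 SD and points are the 3 libraries of each label. Complexes V and IV stand slightly lower and complex III slightly higher in the libraries labelled male on the deposited scale.

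Genes that feed or serve the chain were read from name lists. Of 26 tested genes matching enzymes of the citric acid cycle and pyruvate dehydrogenase, 11 were called toward the male label and 4 toward the female label, with a median of 0.18 beside 0.23 over all genes; after rescaling 5 and 6 were called. This list also holds 5 ATP-citrate synthase models, which are enzymes of the cytosol, and none of them was called. Genes named cytoplasmic aconitate hydratase (GWHGABGR009664) and cytoplasmic malate dehydrogenase (GWHGABGR021145) are in it too, both called toward the female label (-0.39 and -0.16). A pyruvate dehydrogenase kinase (GWHGABGR002213) was among the calls toward the male label (1.10). The counts are thus not of enzymes of the mitochondrial cycle alone. Calls of this list on the deposited scale were 42.3% and 15.4% of its tested genes, beside 27.8% and 9.03% of all tested genes. A citrate synthase (GWHGABGR000566), which opens the cycle, stood at 722, 727 and 749 FPKM in the libraries labelled female and at 1343, 1333 and 1304 in those labelled male. It was called toward the male label on both scales without overlap (log2 fold change 0.86, SE 0.03, limma adjusted p = 1.03e-07; 0.60 after rescaling). The adenine nucleotide translocase (GWHGABGR019460), which exchanges ATP for ADP across the inner membrane, was the one tested carrier gene. It stood at 7519 ± 145 against 7688 ± 195 FPKM and did not pass (0.03, interval -0.03 to 0.09), but was called toward the female label after rescaling (-0.23).

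The largest changes of this list were in low genes, a succinyl-CoA synthetase alpha model (GWHGABGR000539) at 1.43 ± 0.395 against 7.24 ± 2.23 FPKM and malate dehydrogenase 1B (GWHGABGR010630) at 4.73 ± 0.796 against 2.48 ± 0.311 FPKM.

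Among 10 tested genes of other entries to the quinone pool, 4 were called toward the male label and 1 toward the female label. After rescaling 2 and 2 were called. On the deposited scale that is 40% and 10%, beside 27.8% and 9.03% of all tested genes. A pair of methyltransferases of electron transfer flavoprotein is also in this list. Sulfide:quinone oxidoreductase (GWHGABGR003165) stood at 7.16 ± 0.634 against 22.1 ± 1.55 FPKM, a log2 fold change of 1.5 (limma adjusted p = 2.04e-05; 1.26 after rescaling). The alpha subunit of electron transfer flavoprotein (GWHGABGR007136), which serves fatty acid oxidation, stood at 509.8 ± 8.93 against 410.0 ± 6.02 FPKM (-0.31, limma adjusted p = 0.000138; -0.57 after rescaling). Mitochondrial uncoupling protein 4-like (GWHGABGR007478), a member of the inner membrane carrier family, stood at 99.998 ± 6.45 against 189 ± 3.75 FPKM (0.91, limma adjusted p = 5.55e-06; 0.66 after rescaling).

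Of 11 tested import translocase genes, 4 were called toward the male label and 0 toward the female label, and 2 and 1 after rescaling. On the deposited scale that is 36.4% in all, near the 36.9% of all tested genes (27.8% and 9.03%). After rescaling the shares of all tested genes were 14.4% and 17.5%. Of 8 coenzyme Q genes 3 and 0 were called (37.5%), of 5 iron-sulfur genes 2 and 0 (40%), and of 3 cristae genes 2 and 0 (66.7%). After rescaling these became 1 and 1, 1 and 0, and 0 and 0. Tim29 (GWHGABGR003763), an import subunit, stood at 82.6 ± 5.85 against 131 ± 3.78 FPKM, and the adrenodoxin-like gene (GWHGABGR001471) at 9.17 ± 1.90 against 26.7 ± 4.83 FPKM. Mic10 (GWHGABGR009839), which bends the cristae, stood at 326 ± 18.2 against 406 ± 8.95 FPKM, and COQ10 (GWHGABGR010281) at 39.2 ± 3.602 against 62.0 ± 2.50 FPKM. All 4 were called toward the male label, Mic10 not after rescaling.

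The vacuolar proton pump, a related rotary ATPase that energises ion transport in sensilla, had 15 tested genes with 5 called toward the male label and 2 toward the female label. That is 33.3% and 13.3%, beside 27.8% and 9.03% of all tested genes. After rescaling 0 and 11 of its genes were called, 73.3% toward the female label. Of the 1212 tested genes with a mean of at least 100 FPKM, 58.7% were then called that way. The pump's proteolipid (GWHGABGR005184) stood at 10056 ± 169 against 9626 ± 163 FPKM, and subunit e 2-like (GWHGABGR019462) at 4210.2 ± 39.5 against 3614 ± 57.7 FPKM. Both were called toward the female label, at -0.06 and -0.22.

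The authors' oxidative phosphorylation pathway also named 44 genes that are neither matched by the names used here nor parts of the vacuolar pump, many of them under best hits named hypothetical. Of these, 34 were tested, with 9 called toward the male label, 6 toward the female label and a median of 0.03. That is 44.1% in all, beside 36.9% of all tested genes. After rescaling 1 and 20 were called (61.8%), beside 31.8% of all tested genes. Several carry symbols of complex I. NDUFB7 and NDUFA11 were called toward the male label, both at 0.23. Ndufc2 was called toward the female label (-0.13), and NDUFA9 was not called (0.03). NDUFS7 (GWHGABGR011874), the iron-sulfur subunit next to the ubiquinone site, stood at 259 ± 5.68 against 331 ± 13.3 FPKM (0.35, limma adjusted p = 0.000331), and at 0.10 without passing after rescaling. NDUFA7 (GWHGABGR015968) stood at 341 ± 11.3 against 288 ± 6.82 FPKM (-0.24, limma adjusted p = 0.00211), and at -0.50 after rescaling. Cytochrome c1 of complex III had a pair of models. GWHGABGR017757 stood at 388 ± 2.47 against 359 ± 12.2 FPKM and passed toward the female label (-0.11, limma adjusted p = 0.0436). GWHGABGR017756 stood at 184 ± 7.31 against 176 ± 10.9 FPKM and did not pass (-0.07). After rescaling both cytochrome c1 models were called toward the female label, at -0.37 and -0.32.

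A pair of models with the symbol CG12079, which in Drosophila names the 30 kDa subunit of complex I, moved in opposite directions. It was singled out after its values were seen. GWHGABGR000926 stood at 86.2, 92.7 and 90.2 FPKM in the libraries labelled female and at 48.6, 47.4 and 48.1 in those labelled male (log2 fold change -0.89, SE 0.06, limma adjusted p = 6.95e-06). GWHGABGR000928 stood at 21.96, 20.4 and 19.6 against 92.0, 95.8 and 102 FPKM (log2 fold change 2.17, SE 0.08, limma adjusted p = 1.18e-07). Neither overlapped, and after rescaling the values were -1.14 and 1.92. The ratio of the latter model to the former was 0.231 ± 0.021 against 2.01 ± 0.12. Their sum was 110.4 ± 2.51 against 145 ± 5.10 FPKM. Their models share a best hit, and whether the authors' counting split reads of near-identical copies was not tested.

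Markers of other cells were read beside these results. Of 40 genes with muscle names, 4 had a mean of at least 10 FPKM, with titin and twitchin hits among them, and the summed level of the 40 was 264 to 279 FPKM in the libraries labelled female and 277 to 284 in those labelled male. Muscle myosin heavy chain (GWHGABGR012005) stood at 2.28, 2.47 and 2.61 against 6.24, 5.90 and 7.16 FPKM, and was called toward the male label. Muscle actin (GWHGABGR020421) and a troponin C (GWHGABGR009145) were called the other way. They stood at 9.05 ± 2.37 against 3.91 ± 1.61 FPKM and 6.12 ± 1.69 against 3.17 ± 1.31 FPKM. Of 23 tested muscle-named genes, 2 were called toward each label. Hemocyte-named genes summed to 154 to 161 against 169 to 193 FPKM, and fat body-named genes to 1211 to 1265 against 1305 to 1365.5 FPKM. Of their tested genes 2 of 4 and 16 of 33 were called toward the male label, and 0 and 2 toward the female label. Among all tested genes 27.8% were called toward the male label and 9.03% toward the female label. The 12 support cell genes, binding proteins of the sensillum lymph, held 9.50% to 9.77% against 3.07% to 3.23% of FPKM, with 8 called toward the male label and 2 toward the female label. Those 2, pheromone-binding proteins 1 and 3, set the fall of the sum: the latter (GWHGABGR012195) stood at 11729 ± 248 against 1082 ± 28.0 FPKM, while general odorant-binding protein 1 (GWHGABGR012186) stood at 5096 to 5359 against 10250.35 to 10487 FPKM. The coreceptor and a sensory neuron membrane protein 2 (GWHGABGR005182), found in support cells of some moths, were both lower in the libraries labelled male. The 3 genes of that list summed to 3495 to 3517 against 2562 to 2642 FPKM. Their part in the respiratory results was not tested.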

How the data were processed

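Messenger RNA of antennae was measured in 6 libraries, 3 per label. The authors deposited 1 table of FPKM per gene with best protein hits and pathways. The submitters' processing notes name Trimmomatic, HISAT2, HTSeq and R 3.2.0 without their roles; the genome build is not given in the sources used here. FPKM keep steps of whole reads: for 16458 of 16458 genes the deposited values came out whole within 0.01 read, with lengths of at least 90 bases searched. The totals recovered were 9392242 to 11180175 reads; read numbers that share a factor may be too low, so reads serve only to show depth. The precision of a low gene is limited by its few reads.

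Values were tested as log2(FPKM + 1) with limma 3.58.1 in R 4.3.3, with a trended prior, for 11590 genes with a mean of at least 0.5 FPKM, and p-values were adjusted over all of them by Benjamini-Hochberg. A fold change on this scale understates low genes. The script was tested on simulated data. Alternatives were median-of-ratios rescaling, quantile normalization, pseudocounts of 0.1 and 5, no filter, a filter of 2 FPKM, structural subunits only, the replicate number as a block, and leaving out each library.

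Members and lists were chosen with earlier results of these data known. Genes named are the 2 most abundant of each complex, the 2 largest called changes each way and core subunits found by name. Of each list the most abundant gene and largest changes are named. Further genes were named after their values were seen. The p-values measure the spread between these libraries. A name pattern for cytochrome c matched 0 genes.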

Additional observations from a re-analysis of the deposited data

How the results depend on the processing

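Scale mattered most, and the cause was not tested. The number of all genes called higher in male libraries became 1664 under median-of-ratios rescaling and 1636 under quantile normalization, and of all genes called higher in female libraries 2027 and 1688. The respiratory genes gave 3 and 32 after rescaling, with a median of -0.23 (quantile -0.06, structural subunits only -0.07). Rescaled counts toward the male and the female label were 0 and 6 in complex I, 0 and 1 in II, 1 and 4 in III, 0 and 7 in IV, and 14 toward the female label in V. Quantile normalization gave 0 and 2 in complex I, 0 toward the male label in II and 2 toward the female label in III. Structural subunits only gave 0 toward the male label in complex I. In complex III the calls toward the female label were 0 with no filter and 2 with a mean of at least 2 FPKM.

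Same-numbered libraries did not deviate together (r 0.005, 0.006 and -0.004). The labels do not say whether the numbers pair libraries, and these values cannot settle it. With the replicate number as a block the respiratory genes gave 8 calls toward the male label and 6 toward the female label, with 0 toward the female label in complex III and 2 in complex V.

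Leaving out 1 library gave 6 to 10 calls toward the male label and 7 to 12 toward the female label. By complex, the range toward the female label was 1 to 2 in I, 0 to 1 in II, 0 to 2 in III and 2 to 6 in V, and toward the male label 0 to 1 in II and 1 to 2 in IV.

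After rescaling 22 genes turned direction: GWHGABGR011043 and GWHGABGR003223 to -0.22, GWHGABGR011294 to -0.16, GWHGABGR016566 to -0.18, GWHGABGR004097 to -0.04, GWHGABGR003889 to -0.09, GWHGABGR015923 to -0.13, GWHGABGR007130 to -0.25, GWHGABGR017960 to -0.23, GWHGABGR015911 to -0.12, GWHGABGR002372 to -0.18, GWHGABGR021344 and GWHGABGR004835 to -0.14, GWHGABGR018327 to -0.01, GWHGABGR006516 and GWHGABGR005891 to -0.20, GWHGABGR014130 to -0.10, GWHGABGR013555 to -0.25, GWHGABGR013663 to -0.11, GWHGABGR008654 and GWHGABGR005895 to -0.19, and GWHGABGR001848 to -0.15. Under quantile normalization 12 did: GWHGABGR003223 and GWHGABGR013663 to -0.06, GWHGABGR011294 to -0.00, GWHGABGR016566 and GWHGABGR001852 to -0.01, GWHGABGR004097 to -0.17, GWHGABGR017960 to -0.09, GWHGABGR006516 to -0.03, GWHGABGR014130 to -0.05, GWHGABGR013555 and GWHGABGR001848 to -0.19, and GWHGABGR001978 to 0.16. Leaving out 1 library spanned zero for GWHGABGR000567 (-0.65 to 0.12), GWHGABGR001848 (-0.03 to 0.22), GWHGABGR001852 (-0.09 to 0.65), GWHGABGR003223 (-0.04 to 0.09), GWHGABGR007130 (-0.03 to 0.04), GWHGABGR013555 (-0.10 to 0.15), GWHGABGR014130 (-0.05 to 0.40), GWHGABGR015652 (-0.15 to 0.00) and GWHGABGR017049 (-0.11 to 0.01). Pseudocounts of 0.1 and 5 changed no call or direction of the 55 genes. Genes under about 10 FPKM rest on few reads.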
